A study of Penicillium oxalicum with 6 samples.

Results

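In cultures of Penicillium oxalicum, a mould whose secreted enzymes break down plant biomass, 109 of 9834 genes (1.11%) were given reads in fractions: their expected counts were not whole. An expected count is an estimated number of reads or fragments, and a decimal part arises when a read is divided between several genes. The 109 genes were chosen by this property alone: the deposited expected count was not whole in at least 1 of the 6 libraries. The decimals are therefore a description of the choice and not a finding. At the edge of the rule, 11 of the 109 genes were never more than 0.01 from a whole number, and a gene just outside it was whole to the 2 deposited decimals in every library.

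The series holds 6 RNA sequencing libraries. By their labels, all come from the strain MuKu70, a Ku70 mutant, moved as hyphae into basic medium with 1% of a carbon source for 4 hours. The carbon source was Avicel, a microcrystalline cellulose, in 3 libraries and wheat bran in the other 3, and each group has replicates F, S and T. Ku70 is a part of the end-joining repair of broken DNA, and fungi that lack it are used as hosts for gene replacement. The series title instead names a POX07277 deletion mutant 24 hours after a move from glucose to Avicel, so title and labels differ in strain and time. The names of the deposited tables of both groups also carry 24 hours and the number of POX07277. POX07277 itself had expected counts of 427, 375 and 331 in the Avicel-labelled replicates F, S and T and 0 in every wheat-bran-labelled library, whereas the labels give 1 strain. For this reason the groups are named only by their labels, and what truly separates them cannot be told apart from these sources. The labels do not mention separate cultures, and every p-value below rests on the spread among these libraries, which may be technical. Values of single libraries are given in the order F, S, T.

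Library totals were 13176152 to 14598919 expected counts after rounding. The total of Avicel-labelled replicate F was 14598918.9, so not every decimal there had a counterpart in another gene. Over log2 expression, libraries of one group correlated at a Pearson r of 0.983 to 0.995 and libraries of different groups at 0.882 to 0.909. Replicate F in the Avicel-labelled libraries stood apart from its group on principal component 2, at 22.4 against -9.6 and -12.8 (6.3% of the variance). Counts of changed genes are therefore also given without it.

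Genomes hold copies of genes that arose by duplication, and young copies can be so alike that a short read matches each of them. Counting programs such as RSEM then divide the read largely by the estimated level of each copy. A divided read adds a fraction to each gene, and where every part of it is counted the sum over the copies stays whole. The level of a single copy thus depends on the division, and the summed level of the copies does not. Genes that overlap in an annotation can share reads in the same way without being copies. The gene IDs are not paired with names in the files, and none of them matched any of 9964 RefSeq entries (assembly ASM172317v3). For 8196 genes with an entry of the same number there, the lengths had a rank correlation of 0.002, so no names were taken from those entries. No function, position or sequence is given here for any ID, and strand use in counting is not given in the sources used here.

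Reads were divided in every library. Between 71 and 82 genes per library had a count that was not whole, 44 genes in all 6 libraries, 18 in 5, 8 in 4, 8 in 3, 6 in 2 and 25 in 1. For 16 of the 109 genes no library was more than 0.02 from whole. The distance from a whole number does not measure how many reads were divided, since fractions of several divided reads can add up to a whole count. Together the 109 genes took 1.33% ± 0.134 of each Avicel-labelled library and 4.62% ± 0.089 of each wheat-bran-labelled one (SD, n = 3 each). Most of the latter share came from the pair POX01651 and POX01764, which held 70.2% to 71.9% of these counts in the wheat-bran-labelled libraries and 11.4% to 18.0% in the Avicel-labelled ones. The remaining genes took 1.01% to 1.21% and 1.31% to 1.39% of all counts.

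The gene IDs were concentrated at the end of the numbering. Numbers from 9401 to 9834 held 50 of the 109 genes (45.9%) but 4.41% of all IDs. In that stretch 11.5% of the IDs had divided reads, against 0.628% of the 9400 before it. The limit of 9401 was set after the distribution was seen. Genes of that stretch as a whole had a median FPKM (reads or fragments scaled to gene length and library size) of 9.82 and a median implied length of 747 bases, against 24.5 and 1186 for the earlier numbers. Implied length is the length that follows from the ratio of count to FPKM, an effective length that need not equal that of the transcript. A second, smaller group lay at numbers 6601 to 6700, with 7 genes. Median FPKM of the 50 genes in the upper stretch was 3.37, against 22.7 for the other 59.

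**Figure D1:**
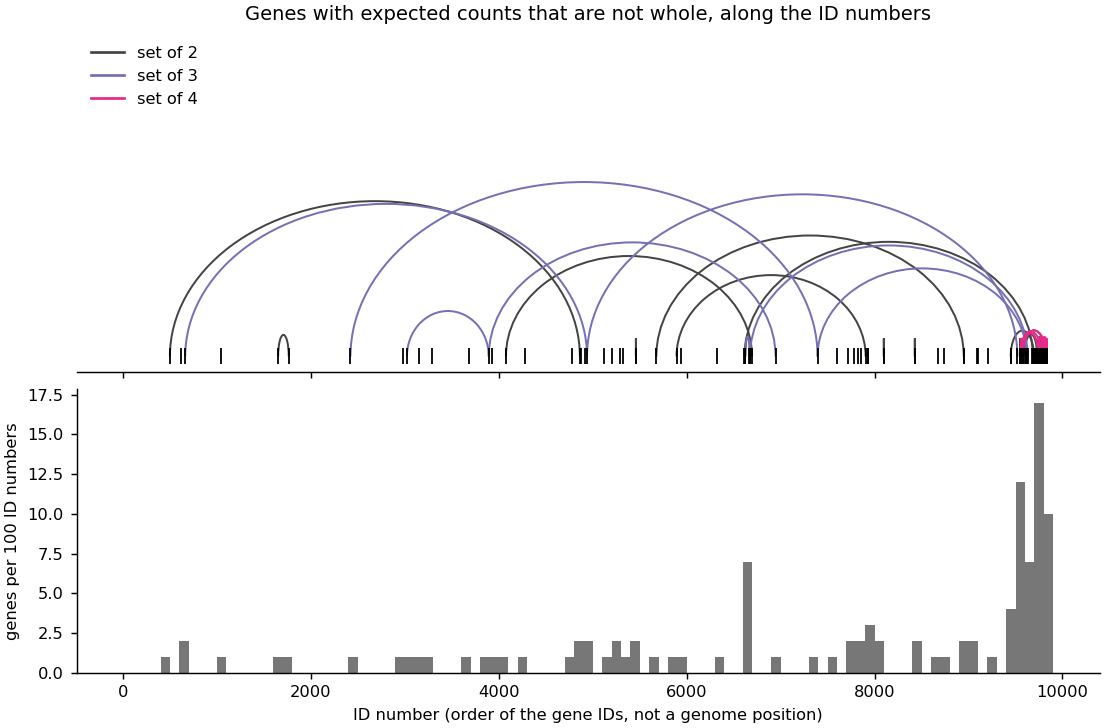
Upper panel: each tick is 1 of the 109 genes along the ID numbers, and arcs join genes whose expected counts sum to a whole number in every library, coloured by set size. Lower panel: genes per 100 ID numbers; 50 of the 109 lie at numbers from 9401 up.

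Weakly read genes and short genes were frequent among the 109. Their median FPKM over all libraries was 8.47 (quartiles 0.765 and 58.5), against 24.0 (7.33 and 60.7) for all other genes. The range was wide: 19 genes had a mean FPKM of at least 100, 61 lay between 1 and 100, and 29 lay under 1. The median implied length was 667 bases against 1174 for the other genes, and 36 of 109 (33.0%) were shorter than 500 bases, against 18.4% of 9582 other genes with a length. The implied lengths of the 109 ran from 93.6 to 4572 bases.

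Partners were found from the counts themselves. A set of genes that divides reads among its members alone, with every part counted, sums to a whole number in every library. Of 5886 possible pairs, 17 did so with decimals in the same libraries for both genes, and no gene was in more than 1 of these pairs. Among the genes left, 4 sets of 3 and 3 sets of 4 did so as well. The 24 sets held 58 of the 109 genes, and their sums lay within 0.01 of a whole number in every library for pairs and triples and within 0.03 for sets of 4. The pair POX04076 and POX06696 shows the pattern: counts of 3587.65 and 4401.35 in Avicel-labelled replicate F sum to 7989, and counts of 6147.66 and 7065.34 in wheat-bran-labelled replicate T sum to 13213. The 51 genes in no set include 25 with decimals in 1 library, for which a partner cannot be told from the sums. The sums identify partners by arithmetic and do not measure how similar the sequences are.

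Implied length separated the pairs into kinds. In 8 of 17 pairs the longer partner was less than 1.1 times the shorter, in 4 it was between 1.1 and 2 times, and in 5 more than 2 times. POX04076 and POX06696 both had an implied length of 305 bases, POX05892 and POX07905 both 115 bases, POX09581 and POX09744 both 432 bases, and POX09567 and POX09824 both 518 bases. POX01651 (457 bases) and POX01764 (473 bases) differed by a factor of 1.03, as did POX05677 (1881 bases) and POX08949 (1943 bases). In 7 of the 8 pairs of like length the ID numbers lay more than 100 apart, at 113 to 3272. Near-identity of the sequences was not measured.

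The description as near-identical genes was not met by the implied lengths of every pair. All 3 pairs with consecutive numbers had partners of unequal length. POX05459 implied 1320 bases and POX05460 174, POX08428 implied 382 bases and POX08429 1336, and POX08098 implied 785 bases and POX08099 224. The ratio in these pairs was 3.49 to 7.59. Whether such neighbours overlap in the annotation was not tested, because no position is paired with the IDs.

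**Figure D2:**
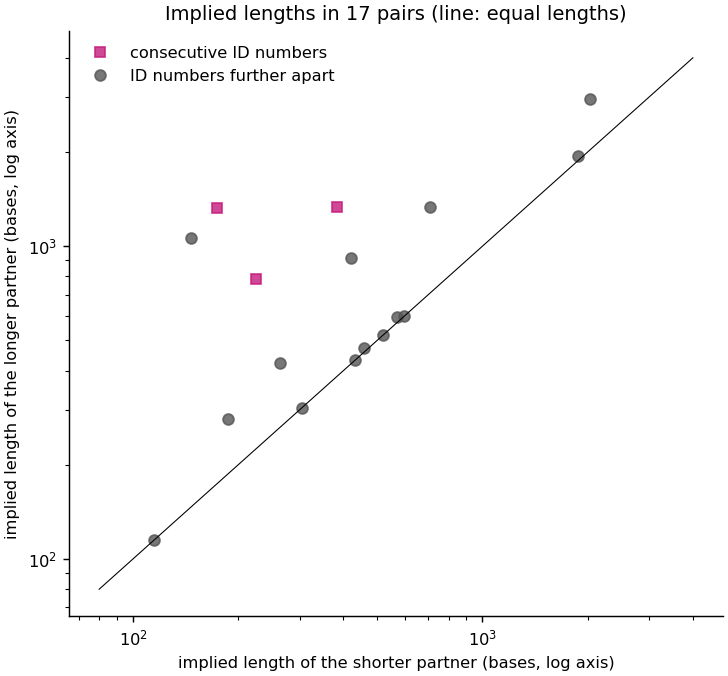
Implied length of the longer against the shorter partner in bases for the 17 pairs, both axes logarithmic; the line marks equal lengths. The 3 pairs with consecutive ID numbers (squares) lie far above the line, and 8 pairs lie on or close to it.

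Some sets ran side by side along the numbers, so that neighbours of one gene were in a set with neighbours of another. The sum of a set of 3 or 4 does not show which of its members divided reads with each other. POX06623 and POX06624 are consecutive, as are POX06673 and POX06674. POX06623 shared a set with POX06674 (and POX09630), and POX06624 shared a set with POX06673, so the partners lie in opposite order. POX09580 and POX09743 were in a set of 4 with POX09789 and POX09833. Their neighbours POX09581 and POX09744 formed a pair, in the same order. Implied lengths were equal within each match, at 523 bases for POX09580 and POX09743 and 432 bases for POX09581 and POX09744. POX09742 and POX09790 formed another pair, next to POX09743 and POX09789 of that set of 4, in opposite order. POX09742 and POX09790 implied 597 and 598 bases, whereas POX09743 and POX09789 implied 523 and 1054 bases. Of the 109 genes, 29 stood in 13 runs of consecutive numbers, the longest of which held the 4 genes POX09742 to POX09745.

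Among the sets, 10 lay wholly at numbers from 9401 up, 10 wholly below, and 4 across. The 3 sets of 4 all lay in the upper stretch. In 1 of them, POX09570 and POX09834 had the same count in every library, with 0.50, 3.23 and 0.50 in the Avicel-labelled libraries and 0.50, 0.50 and 0 in the wheat-bran-labelled ones. The pair POX09567 and POX09824 was likewise equal throughout, at 0.50, 3 and 2 counts in the Avicel-labelled libraries and 1.5, 1 and 1 in the wheat-bran-labelled ones. These genes were equal only at very low levels, of 3.23 counts or less per gene.

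The comparison of the labelled groups asked whether the genes with divided reads differ in expression between them. Of the 109 genes, 83 had enough counts to be tested. Among these, 24 rose and 26 fell in the Avicel-labelled libraries relative to the other group (edgeR's quasi-likelihood test with a Benjamini-Hochberg adjusted p below 0.05 over 8636 genes). That is 50 genes (60.2%), close to the 55% called among all tested genes, of which 27.5% rose and 27.5% fell. At 2-fold or more, 13 rose and 12 fell, or 30.1% of the 83, against 16.4% of all tested genes (7.03% higher and 9.41% lower). Among the 288 tested genes numbered 9401 and above the share was 24%, and among the members there 33.3%. Partners in a set share reads, so the 83 genes are not independent of each other. The 26 untested genes were removed for low counts, and a gene read in 1 group alone passes through that group, so these shares describe the 83 genes and not the 109. The median log2 ratio of the groups (Avicel-labelled over wheat-bran-labelled) was -0.06 against 0.01 over all tested genes. CPM values (counts scaled to library size, TMM-normalised) did not overlap between the groups for 54 genes (65.1%), against 64.4% of all tested genes. Without Avicel-labelled replicate F, 53 of 84 tested genes passed and 24 of them at 2-fold or more, beside 57.5% and 17% of all genes tested in that fit.

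Because division does not touch the sums, each set was also tested as 1 feature. Of 24 sums, 23 were tested and 14 passed, 6 of them higher and 8 lower where the label is Avicel (same edgeR test and threshold). This is 60.9%, against 55% over the 8615 features of that fit, with 27.5% higher and 27.5% lower. Without Avicel-labelled replicate F, 14 sums also passed. In 12 pairs both partners could be tested. Both were called in the same direction in 7 pairs, in opposite directions in 1, 1 partner alone in 1 and neither in 3. The log2 ratios of partners differed by 0.01 to 7.56, with a median of 0.85.

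**Figure D3:**
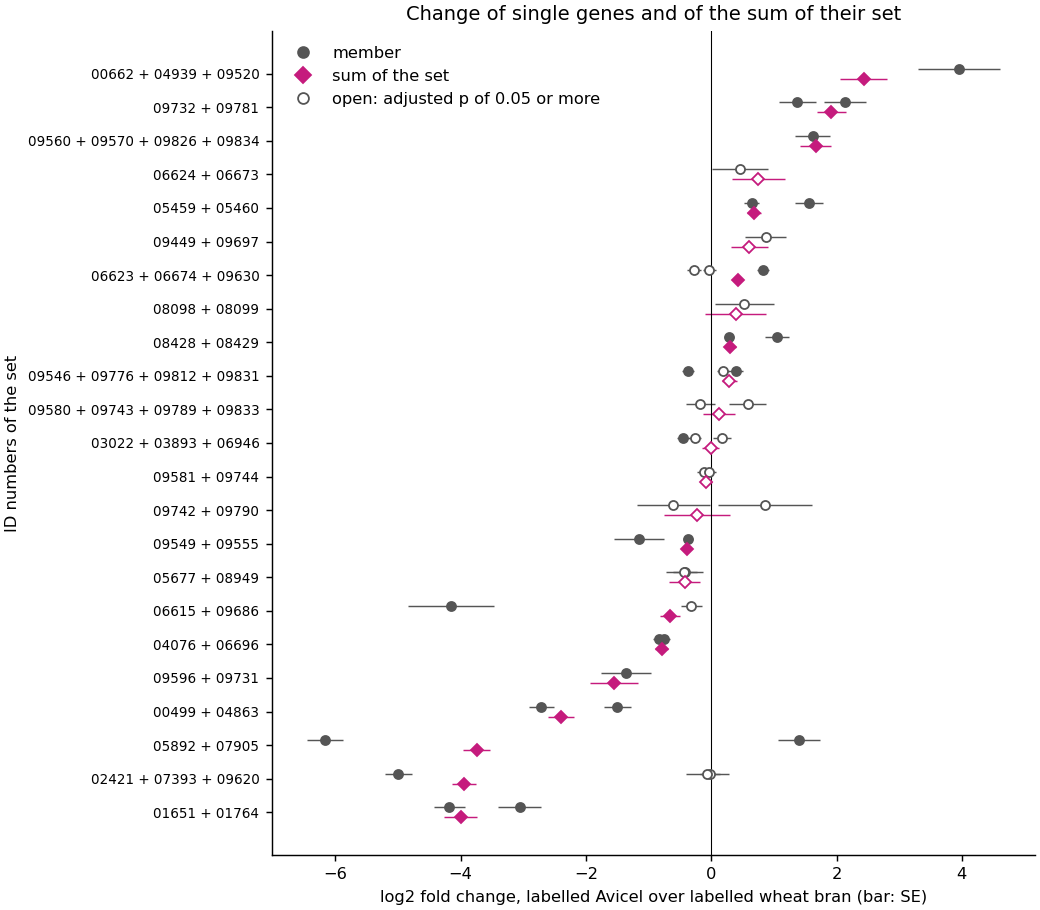
Log2 ratio, Avicel-labelled over wheat-bran-labelled, of single genes (circles) and of the sum of their set (diamonds) for the 23 sets tested, with SE; open symbols did not pass the test. Partners lie within 1 of each other in 7 of the 12 pairs with both genes tested, whereas POX05892 and POX07905 lie on opposite sides of 0.

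The most abundant of all 9834 genes by mean FPKM was a gene with divided reads. POX01764 had 20721, 29723 and 18274 expected counts in the Avicel-labelled libraries, and 386782, 376700 and 399917 in the wheat-bran-labelled ones. Its partner POX01651 had 7713, 8687 and 3275 counts in the Avicel-labelled libraries and 52593, 49053 and 51217 in the wheat-bran-labelled ones. Every wheat-bran-labelled library was above every Avicel-labelled one for both genes. In FPKM, POX01764 stood at 3357 ± 880 in the Avicel-labelled libraries and 60983 ± 1542 in the wheat-bran-labelled ones (SD, n = 3 each), and POX01651 at 992 ± 432 and 8288 ± 377 (SD, n = 3 each). By mean FPKM these were ranks 33 and 142 of 9834 in the Avicel-labelled libraries and ranks 1 and 6 in the wheat-bran-labelled ones.

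The pair also fell as a whole. The summed counts were 28434, 38410 and 21549 in the Avicel-labelled libraries and 439375, 425753 and 451134 in the wheat-bran-labelled ones, a 16.0-fold difference (log2 ratio -4.00, SE 0.26, edgeR adjusted p = 1.61e-05). As deposited, POX01764 fell 18.1-fold (log2 ratio -4.18, SE 0.25, edgeR adjusted p = 9.7e-06) and POX01651 fell 8.33-fold (log2 ratio -3.06, SE 0.35, edgeR adjusted p = 0.00024). POX01651 held 27.1%, 22.6% and 15.2% of the pair in the Avicel-labelled libraries and 11.97%, 11.5% and 11.4% in the wheat-bran-labelled ones. The shares did not overlap, and an exact two-sided permutation test gave p = 0.1, the smallest that 3 against 3 allow. The test was made for 14 sets, and no adjusted p was below 0.14.

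POX00499 and POX04863 also fell together. POX04863 had 3019, 2396 and 3506 counts in the Avicel-labelled libraries and 14360, 18076 and 22020 in the wheat-bran-labelled ones, and POX00499 had 1379, 1417 and 1915 against 3080, 3968 and 5399. Neither gene had overlapping groups. Their sum was 5.27-fold lower in the Avicel-labelled libraries (log2 ratio -2.40, SE 0.20, edgeR adjusted p = 5.37e-05). POX04863, with an implied length of 186 bases, fell 6.55-fold, and POX00499, with 280 bases, 2.84-fold. POX00499 held 34.6% ± 2.97 of the pair in the Avicel-labelled libraries and 18.5% ± 1.09 in the wheat-bran-labelled ones (SD, n = 3 each), again without overlap.

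The equal-length pair POX04076 and POX06696 kept an almost even division. POX04076 had 3588, 3247 and 3474 counts in the Avicel-labelled libraries and 5569, 5466 and 6148 in the wheat-bran-labelled ones, and POX06696 had 4401, 3964 and 4215 against 6302, 6352 and 7065. Both fell without overlap between the groups, by 0.84 (SE 0.09) and 0.75 (SE 0.09) on the log2 scale (edgeR adjusted p = 0.000179 and 0.000348). The summed log2 ratio was -0.79 (SE 0.10, edgeR adjusted p = 0.000399). POX04076 held 45.0% ± 0.137 of the pair in the Avicel-labelled libraries and 46.6% ± 0.332 in the wheat-bran-labelled ones (SD, n = 3 each), a difference of -1.52 percentage points with no overlap.

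**Figure D4:**
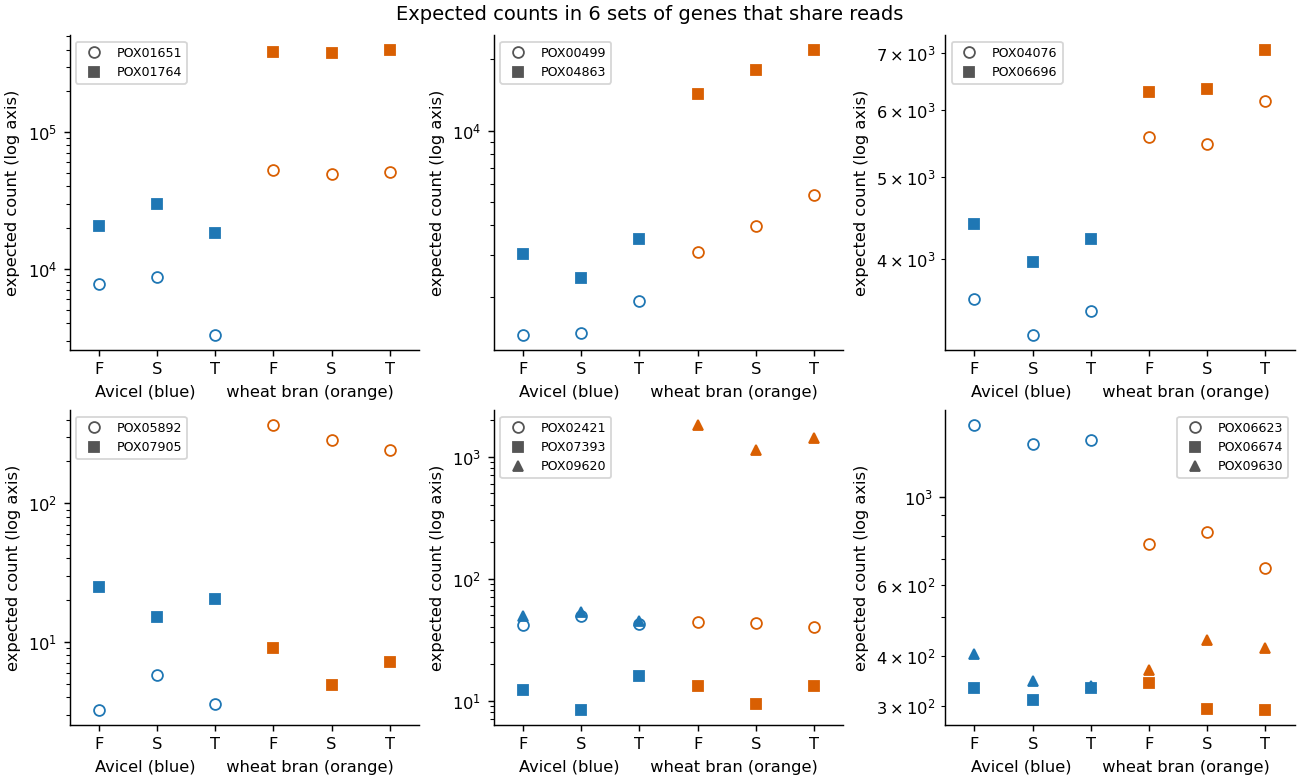
Expected counts (log axis) in each library for 6 sets of genes that share reads, Avicel-labelled replicates F, S and T in blue and wheat-bran-labelled ones in orange. Both partners are lower in the blue libraries in the upper panels, whereas in the lower panels members of a set move apart.

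A pair of equal implied length moved in opposite directions. POX05892 had 3.21, 5.79 and 3.60 counts in the Avicel-labelled libraries and 368, 287 and 240 in the wheat-bran-labelled ones. POX07905 had 24.8, 15.2 and 20.4 counts in the Avicel-labelled libraries and 9.04, 4.86 and 7.12 in the wheat-bran-labelled ones. The libraries of the groups did not overlap for either gene, POX05892 being low and POX07905 high in the Avicel-labelled libraries. The rule that named POX05892 by its decrease required a passed test and no overlap, so for this gene both describe the choice. POX05892 was 71.8-fold lower, the largest decrease among the genes named by rule (log2 ratio -6.17, SE 0.29, edgeR adjusted p = 3.86e-06). It passed the count filter only through the wheat-bran-labelled libraries, where it was high. The size of the fold rests on 3.21 to 5.79 counts in the Avicel-labelled libraries and on how reads were divided. POX07905 was 2.63-fold higher (log2 ratio 1.40, SE 0.34, edgeR adjusted p = 0.00907). POX07905 in turn passed the count filter only through the Avicel-labelled libraries, where it was high. Its fold also rests on few counts and on how reads were divided. POX05892 thus held 18.0% ± 8.46 of the pair in the Avicel-labelled libraries and 97.7% ± 0.613 in the wheat-bran-labelled ones (SD, n = 3 each). The sum fell 13.4-fold, from 377, 292 and 247 counts in the wheat-bran-labelled ones to 28, 21 and 24 in the Avicel-labelled libraries (log2 ratio -3.75, SE 0.22, edgeR adjusted p = 8.97e-06).

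POX09620, a short gene of 137 bases implied length, fell within a set of 3 in which the other genes showed no such change. It was also named by its decrease, which required a passed test and no overlap, so both describe the choice. It had 49.1, 52.7 and 44.6 counts in the Avicel-labelled libraries and 1827, 1138 and 1417 in the wheat-bran-labelled ones, a 31.9-fold difference (log2 ratio -4.997, SE 0.21, edgeR adjusted p = 2.18e-06). Its partner POX02421, implied length 4196 bases, had 41.7, 49.0 and 42.6 counts in the Avicel-labelled libraries and 43.7, 43.1 and 40.3 in the wheat-bran-labelled ones, with a log2 ratio of -0.02 (SE 0.16, edgeR adjusted p = 0.912). POX07393, implied length 1125 bases, had 8.30 to 15.8 counts in the Avicel-labelled libraries and 9.34 to 13.1 in the wheat-bran-labelled ones. The groups overlapped for both partners. The set as a whole fell 15.4-fold (log2 ratio -3.95, SE 0.19, edgeR adjusted p = 3.91e-06).

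Another pair with a partner that was nearly unread in 1 group was POX06615 and POX09686. POX09686 had 0, 10 and 0 counts in the Avicel-labelled libraries and 69.4, 49.8 and 53.0 in the wheat-bran-labelled ones. POX06615 had 169, 152 and 183 counts in the Avicel-labelled libraries and 245, 168 and 172 in the wheat-bran-labelled ones, which overlap. The sum fell by 0.66 on the log2 scale (SE 0.16, edgeR adjusted p = 0.00994), while POX06615 alone did not pass (log2 ratio -0.32, SE 0.17, edgeR adjusted p = 0.152). The 10 counts of POX09686 came from Avicel-labelled replicate S alone. Decimals were found for this pair in the wheat-bran-labelled libraries alone.

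**Figure D5:**
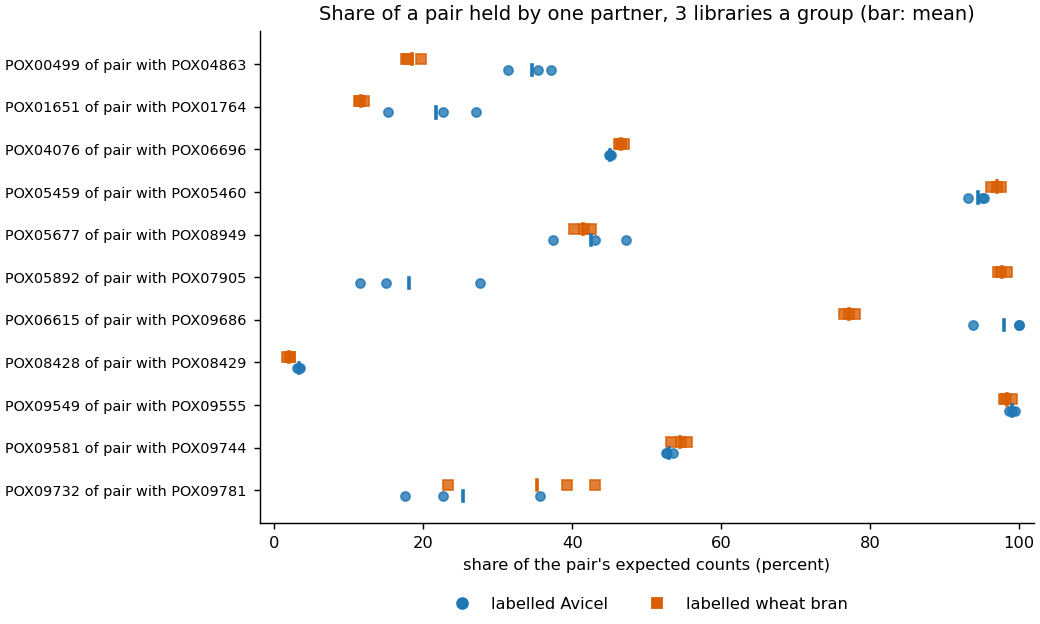
Share of a pair's expected counts (percent) held by the first-named partner in each library for the 11 pairs with at least 20 counts in every library, circles for Avicel-labelled and squares for wheat-bran-labelled libraries, bars at the mean. POX05892 moves from 18.0% to 97.7%, whereas POX09581 and POX04076 stay near an even division.

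Among the genes named by rule the increases were smaller than the largest decreases. For POX09781 and POX09819 the rule required a passed test and no overlap, so both describe the choice. POX09781 had 93.6, 46.9 and 95.7 counts in the Avicel-labelled libraries and 14.8, 20.7 and 14.0 in the wheat-bran-labelled ones, with no overlap. It was 4.39-fold higher in the Avicel-labelled libraries (log2 ratio 2.13, SE 0.33, edgeR adjusted p = 0.00116). Its partner POX09732 had 27.4, 26.1 and 20.4 counts against 11.2, 6.30 and 9.03 and was 2.59-fold higher (log2 ratio 1.38, SE 0.30, edgeR adjusted p = 0.00533). POX09732 passed the count filter only through the Avicel-labelled libraries, where it was high. The sum of POX09781 and POX09732 was 3.78-fold higher (edgeR adjusted p = 0.00036). POX09819, the gene with the largest increase that the naming rule gave, had 451, 375 and 457 counts in the Avicel-labelled libraries and 48.0, 100 and 86 in the wheat-bran-labelled ones. It was 5.11-fold higher (log2 ratio 2.35, SE 0.23, edgeR adjusted p = 0.000107). Its count differed from a whole number by 0.01 in 1 library, and how many of its reads were divided is not known.

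In the consecutive pair POX05459 and POX05460 both partners rose. POX05459 had 1685, 1345 and 1360 counts in the Avicel-labelled libraries and 967, 853 and 793 in the wheat-bran-labelled ones, and POX05460 had 88.7, 99.8 and 68.0 against 23.4, 33.8 and 23.7. The groups did not overlap for either gene. POX05459 was 1.57-fold higher (log2 ratio 0.65, SE 0.12, edgeR adjusted p = 0.00231) and POX05460 2.95-fold (log2 ratio 1.56, SE 0.23, edgeR adjusted p = 0.000827). The shorter POX05460 held 5.56% ± 1.18 of the pair in the Avicel-labelled libraries and 3.03% ± 0.729 in the wheat-bran-labelled ones (SD, n = 3 each). The consecutive pair POX08428 and POX08429 was 1.24-fold higher in sum (edgeR adjusted p = 0.0151). Its call was lost without wheat-bran-labelled replicate T (edgeR adjusted p = 0.059).

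The set of POX06623, POX06674 and POX09630 had 1 gene of 3 that passed the test. POX06623 had 1516, 1355 and 1386 counts in the Avicel-labelled libraries and 762, 817 and 665 in the wheat-bran-labelled ones, a 1.77-fold difference without overlap (log2 ratio 0.82, SE 0.09, edgeR adjusted p = 0.000249). POX06674 had 333, 309 and 331 counts against 342, 294 and 292, with overlapping groups and a log2 ratio of -0.03 (SE 0.10, edgeR adjusted p = 0.798). POX09630 had 404, 345 and 336 counts against 367, 439 and 419, also overlapping, with a log2 ratio of -0.28 (SE 0.11, edgeR adjusted p = 0.0665). It passed without replicate F of either group (edgeR adjusted p = 0.0184 without the Avicel-labelled and 0.0497 without the wheat-bran-labelled one). The set rose by a log2 ratio of 0.42 (SE 0.08, edgeR adjusted p = 0.00322). POX06623 held 67.4% ± 0.096 of it in the Avicel-labelled libraries and 50.9% ± 2.32 in the wheat-bran-labelled ones (SD, n = 3 each). The neighbouring pair of this set, POX06624 and POX06673, was read far less, with 17, 22 and 21 summed counts in the Avicel-labelled libraries and 19, 5 and 9 in the wheat-bran-labelled ones. That sum did not pass (log2 ratio 0.75, SE 0.42, edgeR adjusted p = 0.167), but it passed without wheat-bran-labelled replicate F (1.40, edgeR adjusted p = 0.0206).

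Several abundant sets gave no detected change in their sum. POX03893 had 36462, 46756 and 41612 counts in the Avicel-labelled libraries and 32333, 36438 and 34772 in the wheat-bran-labelled ones, and its partner POX03022 had 11514, 10965 and 11765 against 13022, 11961 and 13115. The third member, POX06946, had 7697, 7735 and 8208 counts against 10495, 8923 and 10590 and fell by 0.45 on the log2 scale (SE 0.11, edgeR adjusted p = 0.00919) with no overlap. POX03022 and POX03893 had log2 ratios of -0.26 and 0.17 (SE 0.10 and 0.14), neither called (edgeR adjusted p = 0.0583 and 0.335). The implied lengths of POX03022, POX03893 and POX06946 were 445, 915 and 2077 bases. Their summed log2 ratio was -0.01 (SE 0.13, edgeR adjusted p = 0.947), from sums of 55673 to 65456 in the Avicel-labelled libraries and 55850 to 58478 in the wheat-bran-labelled ones.

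POX05677 and POX08949 were abundant as well, at 452 ± 114 and 616 ± 248 FPKM in the Avicel-labelled libraries and 603 ± 55.7 and 827 ± 84.3 FPKM in the wheat-bran-labelled ones (SD, n = 3 each). POX08949 had 9807, 23399 and 18456 counts in the Avicel-labelled libraries, so that replicate F lay lowest, and 19015, 21703 and 24161 in the wheat-bran-labelled ones. POX05677 had 8784, 13952 and 13983 counts against 14062, 14588 and 17164. The summed log2 ratio of -0.42 (SE 0.25) did not pass (edgeR adjusted p = 0.186). Without Avicel-labelled replicate F it was -0.18 (edgeR adjusted p = 0.345). In this pair the counts had decimals in 2 libraries only.

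The matched neighbours at the end of the numbering gave no detected change. POX09581 had 818, 705 and 722 counts in the Avicel-labelled libraries and 833, 758 and 683 in the wheat-bran-labelled ones, and POX09744 had 711, 635 and 648 against 730, 612 and 567, overlapping in both cases. Their sum had a log2 ratio of -0.08 (SE 0.10, edgeR adjusted p = 0.514), and POX09581 held 52.6% to 55.4% of it in every library. POX09580 had 318, 473 and 651 counts in the Avicel-labelled libraries and 542, 531 and 446 in the wheat-bran-labelled ones, and POX09743 had 229, 383 and 580 against 243, 279 and 220. The groups overlapped for both genes, and the sum of their set of 4 had a log2 ratio of 0.13 (SE 0.26, edgeR adjusted p = 0.70). The Avicel-labelled replicates F, S and T differed from each other in that sum, at 554, 869 and 1261 counts, by more than the wheat-bran-labelled ones, at 799, 818 and 674.

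A set of 4 that POX09776 led held genes that moved in different directions. POX09776, implied length 4572 bases, had 15691, 14689 and 15091 counts in the Avicel-labelled libraries and 9925, 12289 and 10119 in the wheat-bran-labelled ones and rose (log2 ratio 0.39, SE 0.12, edgeR adjusted p = 0.0219). POX09546, implied length 607 bases, had 1825, 1539 and 1740 counts against 1862, 2244 and 2065 and fell (log2 ratio -0.38, SE 0.10, edgeR adjusted p = 0.0124). Neither gene had overlapping groups. The sum of this set, which also holds POX09812 and the hardly read POX09831, had a log2 ratio of 0.29 (SE 0.12) and did not pass (edgeR adjusted p = 0.0647), but it passed without wheat-bran-labelled replicate S (0.39, edgeR adjusted p = 0.036). At a wider tolerance of 0.02 per member its sums still qualify, but the set was displaced by another combination of 4 that holds POX09546. These genes and those of the next paragraphs were chosen after their values were seen.

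Among weakly read sets, the sum of POX00662, POX04939 and POX09520 rose the most. It was 44, 30 and 32 counts in the Avicel-labelled libraries and 10, 3 and 5 in the wheat-bran-labelled ones, or 5.39-fold higher (log2 ratio 2.43, SE 0.38, edgeR adjusted p = 0.00115). This sum passed the count filter only through the Avicel-labelled libraries, where it was high. POX04939 held most of it, with 29.8, 27.4 and 32 counts against 4.84, 0.06 and 0. The other members had at most 11.0 counts in any library and were not tested. The sum led by POX09826 rose 3.19-fold, from 17, 22 and 14 to 50, 57.0 and 75 counts (edgeR adjusted p = 0.000894), although this set was not found at a stricter tolerance of 0.005 per member. The pair POX09596 and POX09731 fell 2.93-fold in sum, from 32.0, 21.0 and 16.0 counts to 12, 7 and 6 (edgeR adjusted p = 0.0106). The sum of this pair passed the count filter only through the wheat-bran-labelled libraries, where it was high.

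Of the 51 genes without a set, 39 were tested and 25 called, 13 higher and 12 lower, against 25 of 44 tested genes inside sets. These shares, 64.1% and 56.8%, stand beside 55% of all tested genes. POX07819, implied length 1252 bases, had 100, 137 and 60 counts in the Avicel-labelled libraries and 1189, 975 and 925 in the wheat-bran-labelled ones, with no overlap. It fell 11.1-fold (log2 ratio -3.48, SE 0.26, edgeR adjusted p = 3e-05), and the decimals were in 1 library. POX07595, implied length 4220 bases, had decimals in 4 libraries and 1062, 1332 and 1207 counts against 496, 309 and 353, a 2.90-fold increase without overlap (edgeR adjusted p = 0.000296). POX03682, implied length 4136 bases, had decimals in 4 libraries too. Its counts were 7379, 7610 and 6743 against 4097, 4019 and 3976, a 1.68-fold increase without overlap (edgeR adjusted p = 0.000323). POX09679 had 1, 0 and 0 counts against 31, 27.2 and 28, and no fold is given for a gene with a single count in 1 group.

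Decimals in every library without a set were found for 14 genes. Among them POX08679, implied length 186 bases, fell from 115, 72.3 and 68.6 counts in the wheat-bran-labelled libraries to 39.2, 21.7 and 30.7 in the Avicel-labelled ones (2.98-fold, edgeR adjusted p = 0.00233). POX09203 fell 1.67-fold, from 457, 454 and 475 to 312, 295 and 282 counts (edgeR adjusted p = 0.000299). POX04282 rose 1.65-fold, from 797, 702 and 761 to 962, 1453 and 1581 counts (edgeR adjusted p = 0.00972). These genes were picked with their values in view, and in each the groups did not overlap. Others of the 14 overlapped and were not called, such as POX03293, POX09453 and POX09736, or were not tested, such as POX09454. Their partners were not found among the sums tried, so the part of each count that was divided is not known.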

How the data were processed

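Total RNA of 6 mycelium libraries was sequenced. Tools named in the submitters' processing notes, whose roles these do not state, are RSEM 1.2.12, Bowtie2 2.1.0, BWA 0.7.10-r789 and DESeq2. Genome build and annotation: not given in the sources used here. Per the file headers, each deposited table holds expected counts, which are not normalized, and FPKM values, which the authors scaled to length and library size. TPM values, deposited for 1 library, were not used.

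Genes were members where a count differed from a whole number by more than 1e-06. Sets were sought among members as sums whole within 0.01 per member in every library. Pairs needed decimals in the same libraries, at least 2, and sets of 3 and 4 needed 5 and 6 libraries in which at least 2 members lay over 0.05 from whole. These last conditions were added after the values were seen. Counts rounded to whole numbers entered edgeR 4.0.16 under R 4.3.3, with low counts removed by filterByExpr, TMM scaling and the quasi-likelihood test. Adjustment was by Benjamini-Hochberg over all genes, with a threshold of 0.05. Log2 ratios are Avicel-labelled over wheat-bran-labelled, and the standard error (SE) follows from the F statistic. Implied length is the count divided by FPKM and by the total count, as a median over libraries. For sums, each set replaced its members in a second fit. Shares within pairs and triples with at least 20 counts in every library were compared by exact permutation. The set search and the edgeR test were also run on simulated data, whose outcome is not given here. For the set search a pass was required for pairs and triples only, and genes with the fewest counts were left out.

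Genes were named by rule: POX07277, sets with every member at a mean FPKM of at least 10, the 2 largest called changes each way without overlap of the groups (mean FPKM of 10 or more in the group that was higher), and the 5 most abundant. All others were picked with their values in view. The members and lists were chosen with earlier results of these data known. Alternatives were DESeq2 1.42.0, limma 3.58.1 on log2 FPKM, other filters, scaling, thresholds and left-out libraries. Counts carry sampling error, and totals of 13176152 to 14598919 leave genes with few counts imprecise.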

Additional observations from a re-analysis of the deposited data

How the results depend on the processing

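Under all 17 alternatives the number of called genes stayed within 1.5 times 50. It was 38 with a threshold of 0.01 (37.6% of all tested genes passed it). With a library left out it was lowest at 43 of 85 without Avicel-labelled replicate S (46.6% of all tested genes) and highest at 53 of 84 without Avicel-labelled replicate F (57.5%). The sums called numbered 12 to 16 against 14. Treating the letter as a replicate block gave 49 genes (53.3% of all tested genes passed) and 14 sums; same-letter libraries correlated at 0.19, -0.10 and 0.23 (F, S and T) in their deviations from the group means, so the letters were not taken as pairs. With the trend of each library with gene length removed, 28 genes rose and 23 fell, against 24 and 26, while 2627 of all tested genes rose and 1897 fell, against 2373 and 2373. For changes of 2-fold and above, limma with a pseudocount of 5 gave 14 genes against 25 (10.3% against 16.4% of all tested genes), since that pseudocount by construction shrinks the folds of weakly read genes. Decimals in all 6 libraries were met by 44 of the 109 genes, and in at least 3 by 78. The 24 sets became 23 at a tolerance of 0.005 per member, which lost POX09560, POX09570, POX09826 and POX09834, whose sum was 0.03 off in 1 library. At 0.02 there were also 23, without that set and the set led by POX09776 and with another combination of 4 (POX09203, POX09454, POX09546 and POX09560). No gene could be in more than 1 set, and this combination took POX09546 and POX09560 from the sets that were lost.

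Among the named genes and the sums, changes that turned sign were ones that had not been called. With the length trend removed, the log2 ratio became 0.005 for POX03022, 0.22 for POX06674, 0.15 for POX09581, 0.23 for POX09744, 0.18 for the sum of POX09581 and POX09744, and 0.14 for the sum of POX03022, POX03893 and POX06946. With limma at pseudocounts of 0.1 and 1, the sum of POX08098 and POX08099 gave -0.154 and -0.034. With 1 library left out, ranges were -0.075 to 0.048 for POX06674, -0.117 to 0.075 for POX09744, and -0.157 to 0.011 for the sum of POX09581 and POX09744. The range was -0.072 to 0.055 for the sum of POX03022, POX03893 and POX06946, -0.944 to 0.207 for POX09742 and POX09790, -0.181 to 0.801 for POX08098 and POX08099, and -0.191 to 0.382 for the set of POX09580. The cause was not tested. POX03022 passed with DESeq2 and with limma, POX09630 with limma, and the sum led by POX09776 with DESeq2.

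The sum of POX02421, POX07393 and POX09620 had a log2 ratio of -4.89 to -4.66 when FPKM values were summed for limma, against -3.95 from counts, since FPKM weighs the short POX09620 more. Genes with decimals in 1 library cannot be placed in a set by sums, and weakly read sets are limited by their counts.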

Other observations

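Among the 51 genes in no set, 1 combination of 5 also summed to a whole number within 0.01 in every library. It held the consecutive POX09452, POX09453 and POX09454 together with POX09552 and POX09736, of which POX09736 was the most abundant in counts, at 4977, 4350 and 4662 in the Avicel-labelled libraries (replicates F, S and T) and 6461, 4997 and 3843 in the wheat-bran-labelled ones. Sets of 5 were sought only after the smaller sets had been seen. Among all 9834 genes, none with at least 10 counts over the 6 libraries had the same expected counts as another gene in every library.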
